A study of Rattus norvegicus with 6 samples.

Results

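The calpain system of muscle was examined here as 5 of the 10411 genes named on the array, namely the catalytic subunits Capn1 and Capn2, the regulatory subunit Capns1, the muscle calpain Capn3 and the inhibitor calpastatin, Cast. Every probe set that the platform annotation gives to exactly 1 of these genes was taken, which gave 7 of the 15866 probe sets on the array other than controls. Cast had 3 probe sets and the other 4 genes had 1 each. All 7 had a mean signal above the level of 105.8 that was required for testing, so no member was lost to the filter. Total RNA came from the left costal hemidiaphragm of male Wistar rats, with 1 Affymetrix rat expression array per rat. The 3 diabetic rats had been injected with streptozotocin, a toxin of the insulin-producing pancreatic beta cell, at 60 mg/kg and 8 weeks of age, and the 3 normal rats with the citrate buffer alone. Muscle was taken 4 weeks later after a night without food, and no rat received insulin. Streptozotocin itself can act on tissues other than the pancreas, and this design cannot tell such an effect apart from diabetes.

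Calpains are cysteine proteases of the cytosol that are switched on by calcium and cut their targets at a limited number of places. In muscle they are known for releasing proteins from the Z-disc and the membrane skeleton, a step that is thought to precede their breakdown by the proteasome. Capn1 and Capn2 encode the large subunits of mu-calpain and m-calpain, each of which pairs with the small subunit encoded by Capns1, and calpastatin binds and blocks both enzymes. Calpain 3 is made mainly in skeletal muscle, is anchored on titin and is not held in check by calpastatin. Loss of CAPN3 in humans causes a limb-girdle muscular dystrophy. The arrays measured transcripts, and protease activity was not measured.

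None of the 7 calpain and calpastatin probe sets passed the test in either direction. Over all probe sets, 6.78% of the 9519 tested passed (limma's moderated test on log2 signals, Benjamini-Hochberg adjusted p under 0.05), 3.3% higher and 3.48% lower in diabetic diaphragm. At an unadjusted p under 0.05 none of the 7 passed, against 23.9% of all probe sets tested. Fold changes were lower in diabetic diaphragm for Capn1, Capn3, Capns1 and 1 Cast probe set, and higher for Capn2 and 2 Cast probe sets, and all 7 of the 95% intervals held 0. For 6 of the 7 the interval also lay wholly within a 2-fold difference either way, which was so for 79.4% of all probe sets tested. The interval of Capn1 was the exception, since its lower end passed a 2-fold decrease.

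**Figure D1:**
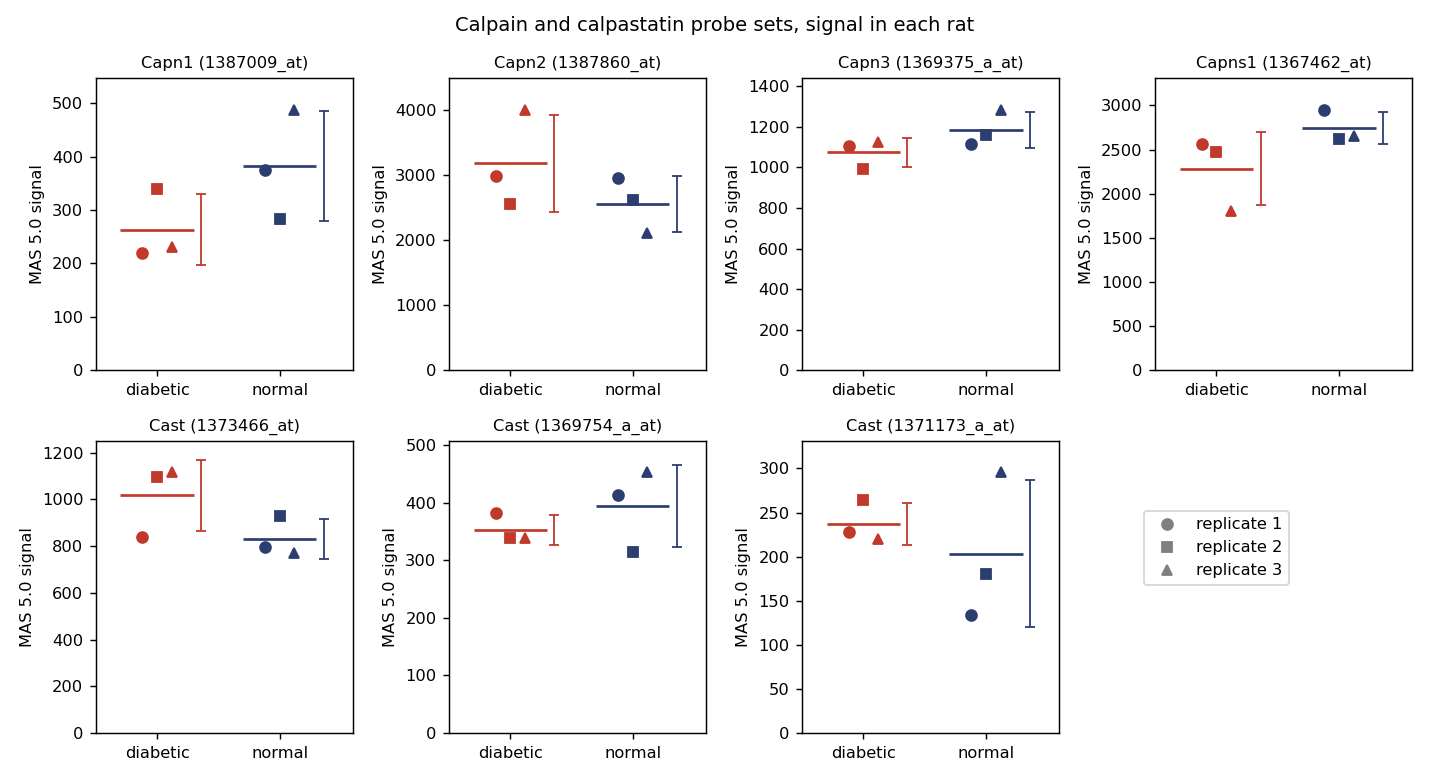
MAS 5.0 signal on linear axes that start at 0 for the 7 calpain and calpastatin probe sets, in 3 diabetic and 3 normal rats. Each point is 1 rat, the long line is the mean and the bar beside it is 1 SD; only for Capns1 do the diabetic points lie clear of the normal ones, at 1807 to 2563 against 2624 to 2952.

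The median signal was 167.6 to 179.5 on diabetic and 168.6 to 180.8 on normal arrays. The ratio of the 3′ to the 5′ β-actin control, which rises as RNA is degraded, was 1.17 to 1.72 on diabetic arrays, against 1.38 and 1.48 on normal replicates 3 and 1 and 2.27, the highest of all, on normal replicate 2. The study reports a lower range for this ratio, and RNA integrity numbers that were high for all samples. For the ratio of the 3′ to the middle β-actin control the study's range is higher. The source of the mismatch in the 3′ to 5′ ratio was not traced. Whether RNA of normal replicate 2 was degraded was not tested. The spiked bacterial transcripts stood apart on diabetic replicate 3, at a median of 1.92 when each is scaled to its geometric mean over all arrays, against 0.799 and 0.845 on the other diabetic and 0.837 to 0.959 on the normal arrays. Values without diabetic replicate 3 are therefore given below for the members that rest on it. All 11 skeletal muscle markers on the array were above the filter level. So were all 8 endothelial markers on the array, so passing that level does not check the tissue label. In diabetic diaphragm 3 of the 11 skeletal muscle markers were lower, against 3.55% of all genes tested. Of the 3, Mb was lost with 5 of the 6 arrays left out in turn, Casq1 with 3 and Myh4 with none.

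Capn1, the catalytic subunit of mu-calpain, had the lowest ratio of diabetic to normal mean signal among the 7 probe sets. The signal was 220, 339 and 231 in diabetic rats 1 to 3, against 376, 283 and 488 in normal rats 1 to 3. Diabetic replicate 2 lay above normal replicate 2, so the groups overlapped. The means were 263 ± 65.6 in diabetic and 382 ± 103 in normal diaphragm (SD, n = 3 each), a ratio of 0.690. The log2 fold change was -0.53 (standard error 0.24, 95% interval -1.07 to 0.01) and did not pass the test (limma adjusted p = 0.22). Of all probe sets tested, 17.9% differed by more on the log2 scale. The spread among rats was wide within each group, with a coefficient of variation of 24.9% in diabetic and 26.9% in normal muscle, against medians of 14.7% and 14.5% over all probe sets tested. When single arrays were left out, the log2 fold change of Capn1 ran from -0.73 to -0.33.

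Capn2, the catalytic subunit of m-calpain, had a higher mean in diabetic diaphragm, but 1 array carried much of the difference. The signal was 2992, 2549 and 4007 in diabetic rats, against 2959, 2611 and 2108 in normal rats. Diabetic replicates 1 and 2 lay close to normal replicates 1 and 2, and the highest value of all was that of diabetic replicate 3. Means were 3183 ± 747 in diabetic and 2559 ± 428 in normal muscle (SD, n = 3 each), with a log2 fold change of 0.30 (standard error 0.20, 95% interval -0.13 to 0.74, adjusted p = 0.39 from limma). Without diabetic replicate 3, the array on which the spiked transcripts stood apart, the log2 fold change was 0.12, and without normal replicate 3, the lowest of the normal rats, it was 0.17.

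Capns1, the small subunit shared by mu-calpain and m-calpain, was the only member whose groups did not overlap. The signal was 2563, 2475 and 1807 in diabetic rats, against 2952, 2624 and 2652 in normal rats. The gap between the highest diabetic and the lowest normal value was small beside the spread of the diabetic rats. Of all probe sets tested, 14.4% had every diabetic array below every normal array. Means were 2282 ± 413 in diabetic and 2743 ± 182 in normal muscle (SD, n = 3 each), a ratio of 0.832, and the log2 fold change of -0.28 (standard error 0.17, 95% interval -0.65 to 0.09) did not pass the test (limma adjusted p = 0.34). A 2-sided exact permutation test gave p = 0.1, the smallest that 3 arrays against 3 can give (0.35 after adjustment over the 7 probe sets). The lowest of the 6 values was that of diabetic replicate 3, and without that array the log2 fold change was -0.12.

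Capn3, the calpain of skeletal muscle, had a narrow spread in either group. The signal was 1108, 990 and 1125 in diabetic rats, against 1114, 1161 and 1285 in normal rats. Only diabetic replicate 3 exceeded the lowest normal value. Means were 1074 ± 73.3 in diabetic and 1186 ± 88.5 in normal muscle (SD, n = 3 each), with coefficients of variation of 6.82% and 7.46%. The log2 fold change was -0.14 (standard error 0.15, limma adjusted p = 0.61), and its 95% interval, -0.47 to 0.18, corresponds to a level between 0.722 and 1.14 times that of normal muscle. With single arrays left out the log2 fold change ran from -0.19 to -0.084. Capn3 had the narrowest interval of the 7, and 69.6% of all probe sets tested differed by more.

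Cast, the calpastatin gene, was measured by 3 probe sets that pointed in different directions. On probe set 1373466_at the signal was 841, 1094 and 1116 in diabetic rats, against 797, 928 and 769 in normal rats. Diabetic replicate 1 lay below normal replicate 2, and the other diabetic values lay above every normal value. The log2 fold change there was 0.28 (standard error 0.17, 95% interval -0.09 to 0.66, adjusted p = 0.34 from limma), and 0.21 to 0.42 with single arrays left out. On probe set 1369754_a_at the signal was 383, 338 and 338 in diabetic rats, against 414, 315 and 453 in normal rats. The diabetic values lay inside the range of the normal values, with a log2 fold change of -0.14 (95% interval -0.55 to 0.27, adjusted p = 0.69). It was -0.30 without normal replicate 2, the lowest of the normal rats there, and -0.03 without normal replicate 3, the highest.

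On the third Cast probe set, 1371173_a_at, the signal was 228, 265 and 220 in diabetic rats, against 133, 180 and 296 in normal rats. The normal rats spread over more than the whole diabetic range, with a coefficient of variation of 10.04% in diabetic and 41.1% in normal muscle. The log2 fold change of 0.30 (standard error 0.28, 95% interval -0.31 to 0.91, adjusted p = 0.56) was 0.04 without normal replicate 1 and 0.61 without normal replicate 3. Whether the 3 Cast probe sets changed unequally was examined from the difference of their log2 signals on each array, which does not depend on the scaling of the array. For 1373466_at minus 1369754_a_at this difference was 1.52 ± 0.331 in diabetic and 1.09 ± 0.417 in normal muscle (SD, n = 3 each; 2-sided exact permutation test, p = 0.2). For 1369754_a_at minus 1371173_a_at it was 0.57 ± 0.201 and 1.02 ± 0.542 (p = 0.3, exact), and for 1373466_at minus 1371173_a_at it was 2.09 ± 0.233 and 2.11 ± 0.639 (p = 0.9, exact). The groups overlapped in all 3 (adjusted over the 3 pairs, 0.45 or more). The second of these differences between groups, -0.44, was -0.13 without normal replicate 1, and the first, 0.43, was 0.26 without normal replicate 3 and 0.66 without normal replicate 2.

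**Figure D2:**
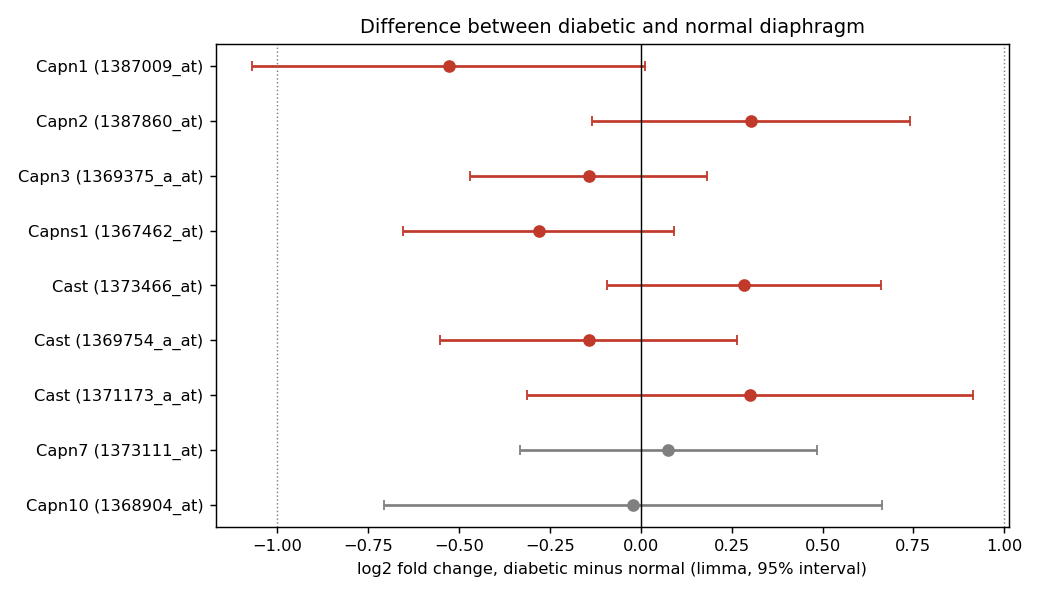
Log2 fold change of diabetic over normal diaphragm (x axis) with its 95% interval from limma, for the 7 calpain and calpastatin probe sets in red and the other calpains above the filter level in grey. Dotted lines mark a 2-fold difference; every interval crosses 0, and that of Capn1, from -1.07 to 0.01, is the one that reaches past a dotted line.

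Calpain and inhibitor transcripts were then compared on the same array, as the difference of log2 signals between each calpain gene and the brightest Cast probe set, 1373466_at. Such a difference shows unequal change between groups, and its own size carries no meaning because probe sets differ in brightness. Capn1 minus Cast was -1.93, -1.69 and -2.27 in diabetic rats, against -1.09, -1.72 and -0.66 in normal rats. All but normal replicate 2 separated, and the mean difference between groups was -0.81 (2-sided exact permutation test, p = 0.2). Capns1 minus Cast was 1.61, 1.18 and 0.70 in diabetic rats, against 1.89, 1.5 and 1.79 in normal rats, a mean difference of -0.56 (p = 0.2, exact). Here diabetic replicate 1 lay above normal replicate 2, and the mean difference was -0.33 without diabetic replicate 3. Capn3 minus Cast was 0.40, -0.14 and 0.01 in diabetic rats, against 0.48, 0.32 and 0.74 in normal rats, a mean difference of -0.43 (p = 0.2, exact), again with diabetic replicate 1 above normal replicate 2.

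Capn2 minus Cast did not follow that direction. It was 1.63 ± 0.356 in diabetic and 1.61 ± 0.243 in normal muscle (SD, n = 3 each), a mean difference of 0.02 (p = 1, exact). Over the 4 comparisons of a calpain gene with Cast the adjusted p was 0.27 for Capn1, Capn3 and Capns1 and 1 for Capn2, and 3 against 3 cannot go below 0.1 before adjustment. The size of these differences moved with the Cast probe set used, in alternatives added after the values had been seen. Against 1369754_a_at the mean difference was -0.39 for Capn1, -0.14 for Capns1 and 0.45 for Capn2, and for Capn3 it was 0.00018, with no direction left. Against 1371173_a_at it was -0.83 for Capn1, -0.58 for Capns1, -0.44 for Capn3 and 0.0027 for Capn2. With the mean of the 3 Cast probe sets, the mean difference was -0.68 for Capn1, -0.43 for Capns1, -0.29 for Capn3 and 0.16 for Capn2.

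The catalytic subunits were also set against the small subunit with which they pair, a comparison chosen after the values had been seen. Capn2 minus Capns1 was 0.22, 0.04 and 1.15 in diabetic rats, against 0.00, -0.01 and -0.33 in normal rats. Every diabetic value lay above every normal value, but diabetic replicate 2 by only a little, and diabetic replicate 3 stood far above the rest. The mean difference between groups was 0.58 (2-sided exact permutation test, p = 0.1, the smallest possible; 0.2 over the 2 pairs). Without diabetic replicate 3 it was 0.24. Capn1 minus Capns1 was -3.13 ± 0.363 in diabetic and -2.88 ± 0.395 in normal muscle (SD, n = 3 each; p = 0.6, exact), with overlapping groups. That difference of -0.25 was -0.041 without diabetic replicate 1 and -0.031 without normal replicate 3.

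**Figure D3:**
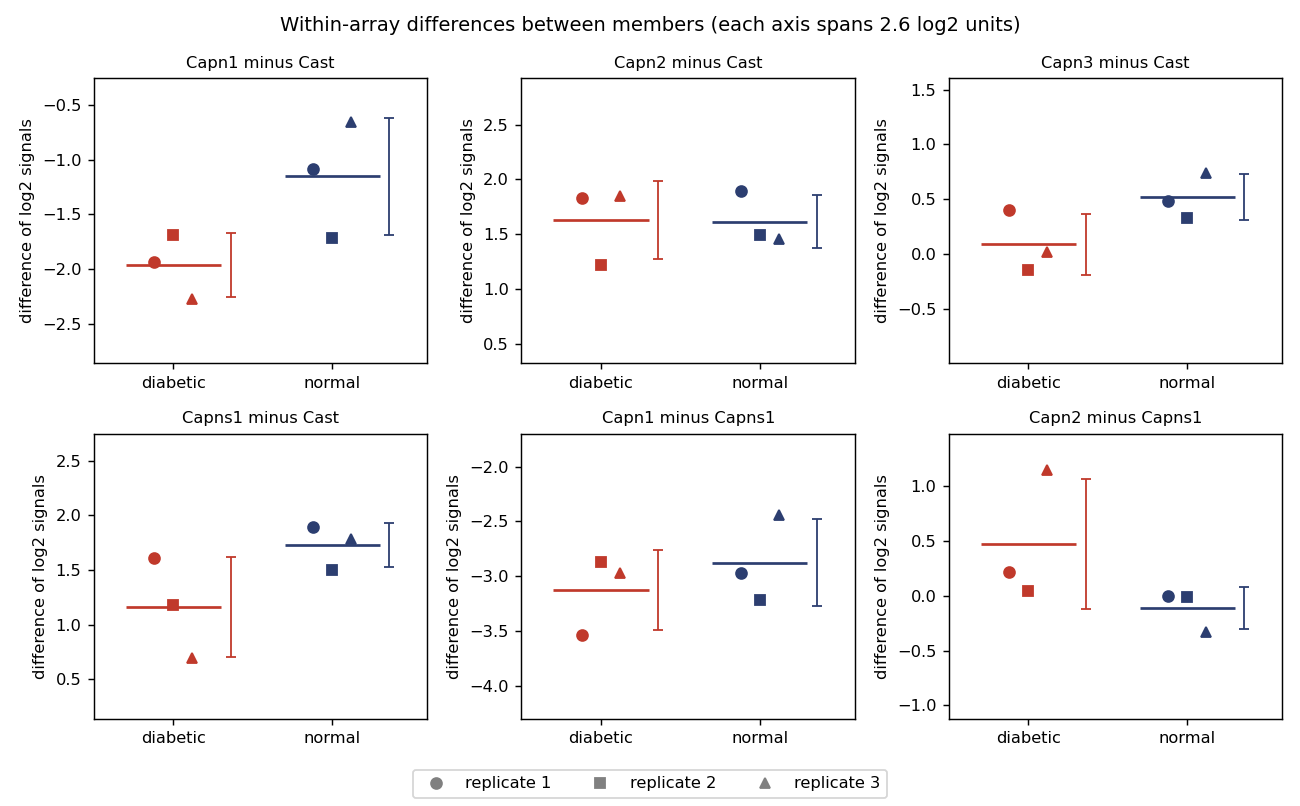
Difference of log2 signals on the same array (y axis, spanning the same length in each panel) for the calpain genes minus Cast and for the catalytic subunits minus Capns1, in diabetic and normal rats. Points are rats, the long line is the mean and the bar is 1 SD; Capn2 minus Capns1 is the panel without overlap, at 0.04 to 1.15 in diabetic and -0.33 to 0.00 in normal rats.

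The genes whose log2 signals followed those of each member most closely over the 6 arrays were found among 7079 other genes. With 6 arrays many genes reach a high correlation, so the values are descriptive, and all points share the scaling of the same arrays. Capn1 was followed most closely by Bcam, which encodes a laminin-binding adhesion molecule (Pearson r = 0.989), and by the kinase gene Cdk17 (0.985). Capn2 was followed by C11h21orf91 (0.977) and by Errfi1, an inhibitor of the epidermal growth factor receptor (0.974). The signal of Errfi1 was 1578, 878 and 2341 in diabetic rats, against 1445, 1023 and 734 in normal rats, with the same high value on diabetic replicate 3 as Capn2. Capn3 was followed by Cand2, a regulator of cullin ubiquitin ligases that is found in muscle (0.996), and by Cmc2 (0.989). Capns1 was followed by Entpd4, a nucleotide-hydrolysing enzyme (0.998), and by Pdss2, which takes part in ubiquinone synthesis (0.985). Cast, taken by its brightest probe set 1373466_at alone, was followed by Dnajc8 (0.993) and by the translation initiation factor gene Eif5b (0.993). None of these 10 genes passed the test, and the lowest limma adjusted p among them was 0.19, for Bcam. They were picked for following members that did not pass, so this is no separate result about them.

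**Figure D4:**
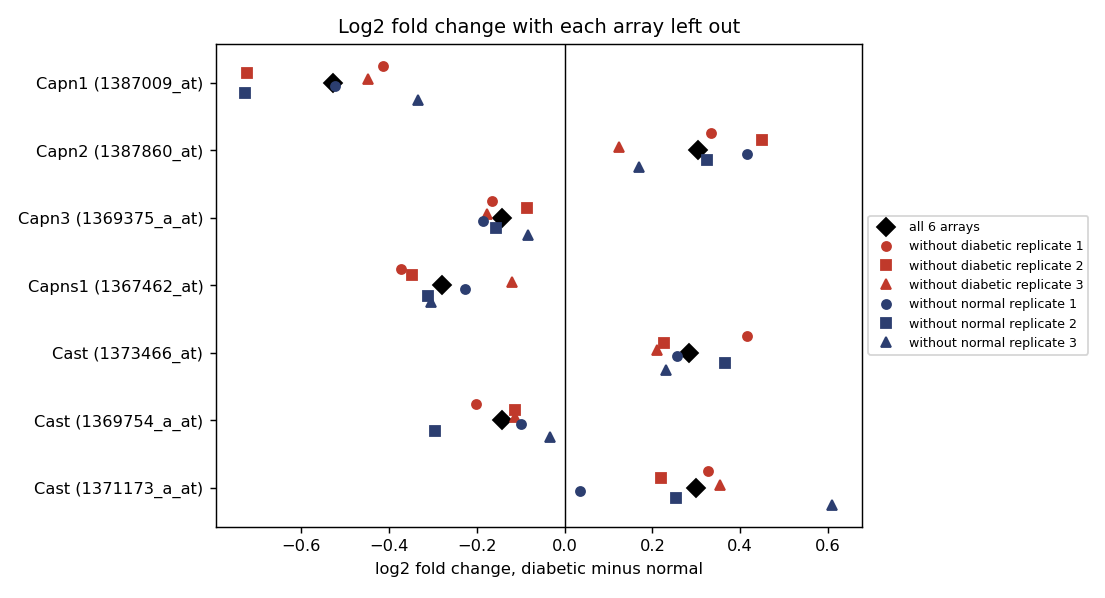
Log2 fold change of diabetic over normal diaphragm (x axis) for each calpain and calpastatin probe set, with all 6 arrays (black diamonds) and with single arrays removed (coloured symbols). Each row stays on its own side of 0; for Capn2 and Capns1 the value nearest 0, at 0.12 and -0.12, is the one without diabetic replicate 3.

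Most of the remaining calpains lay below the filter level in this muscle. Of 11 listed, 8 were on the array and 2 were above the filter level. Capn7, a calpain without the calcium-binding domain of the classical enzymes, had a log2 fold change of 0.08 (95% interval -0.33 to 0.48, adjusted p = 0.84 from limma). Its signal was 1062, 809 and 1254 in diabetic rats, against 977, 1047 and 898 in normal rats, with overlapping groups. Capn10, known from studies of diabetes susceptibility in humans, was dim, at 119 ± 33.8 in diabetic and 119 ± 27.9 in normal diaphragm (SD, n = 3 each; log2 fold change -0.02, 95% interval -0.71 to 0.66). Capn5, Capn6, Capn8, Capn9, Capn13 and Capn15 lay below the filter level and were not tested. Among these, the brighter probe set of Capn8 had a signal of 98.1 to 108 in diabetic and 65.3 to 90.7 in normal rats, and Capn13 had 68.4 to 91.9 in diabetic and 101 to 108 in normal rats. Both pairs of ranges were free of overlap, at signals too low for a test, while those of Capn5, Capn6, Capn9 and Capn15 overlapped. How often ranges were free of overlap among probe sets below the filter level was not counted.

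Genes of proteins taken here as calpain substrates in muscle formed the next list, and evidence of cleavage was not checked for each. Of 28 tested genes, none was higher, 2 were lower and 26 did not pass, and the median log2 fold change was -0.06 against 0.01 over all 7080 genes tested, of which 3.46% were higher and 3.55% were lower. Jph2, a junctophilin that ties the transverse tubule to the sarcoplasmic reticulum, had a signal of 1094, 957 and 843 in diabetic rats, against 2095, 1587 and 3503 in normal rats (log2 fold change -1.24 with a standard error of 0.26, limma adjusted p = 0.019). Mybpc2, the fast myosin-binding protein C, averaged 9785 ± 1013 in diabetic and 16215 ± 1763 in normal muscle (SD, n = 3 each; log2 fold change -0.73, adjusted p = 0.015), while a second probe set had overlapping groups at 486 ± 228 in diabetic and 924 ± 417 in normal muscle. Jph2 did not pass without diabetic replicate 2 or 3 (highest adjusted p = 0.065), nor Mybpc2 without diabetic replicate 1 or normal replicate 3 (0.055). The count of substrates that were higher was 1 without diabetic replicate 2, with quantile scaling, with the stricter filter and with the mean over probe sets.

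Other substrates that did not pass had values on both sides of 0. Titin, Ttn, to which calpain 3 is bound, had a log2 fold change of 0.02 (95% interval -0.37 to 0.41), nebulin, Neb, -0.03 (-0.37 to 0.31), desmin, Des, -0.06 (-0.48 to 0.35) and the membrane skeleton protein spectrin, Sptan1, 0.00 (-0.33 to 0.34). Actn3, the fast-fibre alpha-actinin of the Z-disc, had -0.43 (-0.76 to -0.096, limma adjusted p = 0.12) and Tpm1, a tropomyosin of the thin filament, -0.47 (-0.78 to -0.15, adjusted p = 0.077). For both, every diabetic value lay below every normal one, as it did for 14.4% of all probe sets tested. Vcl, Tpm2 and Ppp3ca were the same, while every diabetic value of Flnc, Sptbn1 and Tln1 lay above every normal one. The share of probe sets lying wholly above was not counted. Flnc, the muscle filamin of the Z-disc and a target of calpain 3, was nearest to the threshold among substrates with a positive fold change (log2 fold change 0.67, 95% interval 0.27 to 1.08, adjusted p = 0.055), at 4543 in diabetic and 2809 in normal muscle on average. Of 10 tested genes whose human counterparts cause limb-girdle muscular dystrophy, 1 was lower, none was higher and 9 did not pass, with a median log2 fold change of -0.06. Over all genes tested, 3.55% were lower and 3.46% higher. The gene that fell was Ano5, a membrane protein of the anoctamin family, at 1564 ± 206 in diabetic and 2495 ± 273 in normal muscle (SD, n = 3 each; log2 fold change -0.68, adjusted p = 0.033), and it did not pass when any of the 6 arrays was left out (adjusted p from 0.053 to 0.099).

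Genes that handle calcium, the ion that activates calpains, were taken as a further list. Of 24 tested, 4 were lower, none was higher and 20 did not pass, against 3.55% lower and 3.46% higher over all genes tested. The median log2 fold change was -0.33, and 18 of the 24 values lay below 0. Without normal replicate 3 the median was -0.16, and without diabetic replicate 2 the number lower was 2. The genes that fell were Pvalb, the calcium buffer parvalbumin (log2 fold change -1.72, adjusted p = 0.0061 from limma), Jph2, S100a1, a calcium-binding partner of the ryanodine receptor (1.96-fold lower, adjusted p = 0.014), and Casq1, the calcium store protein calsequestrin (-0.72, adjusted p = 0.017). Parvalbumin belongs to the genes that the study had singled out on these arrays, so its fall is not independent evidence. Casq1 did not pass when diabetic replicate 2, normal replicate 2 or normal replicate 3 was left out (highest adjusted p = 0.057), while Pvalb and S100a1 passed with each array left out. Ryr1, the calcium release channel of the sarcoplasmic reticulum, had a log2 fold change of -0.05 (95% interval -0.34 to 0.24).

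Other proteases were taken for comparison, in lists that also hold their inhibitors and regulators of apoptosis. Over all genes tested, 3.46% were higher and 3.55% lower. Of 11 tested cathepsins and cystatins 1 was higher and none was lower, with a median log2 fold change of 0.02. Ctsl, the lysosomal protease cathepsin L, had a signal of 7742, 8126 and 9450 in diabetic rats, against 4931, 4104 and 2508 in normal rats (log2 fold change 1.18 with a standard error of 0.23, limma adjusted p = 0.014). No diabetic value came near the normal range, and a second Ctsl probe set was also without overlap, at 1424 to 2222 in diabetic and 551 to 821 in normal rats. Ctsl did not pass without diabetic replicate 3, where its adjusted p was 0.050. Of 8 tested genes of the caspase and apoptosome list 1 was higher and none was lower, with a median of 0.13 that ran from 0.015 without the filter to 0.30 with the stricter one. No tested caspase passed. The gene that was higher was Bcl2l1, which does not encode a protease and whose main product restrains apoptosis. It averaged 440 ± 104 in diabetic and 171 ± 55.0 in normal muscle (SD, n = 3 each; log2 fold change 1.39, adjusted p = 0.013), and missed the threshold without diabetic replicate 1 or 3 (highest adjusted p = 0.054). Both other Bcl2l1 probe sets lay below the filter level, with overlapping groups and ratios of diabetic to normal mean signal of 0.954 and 0.715.

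**Figure D5:**
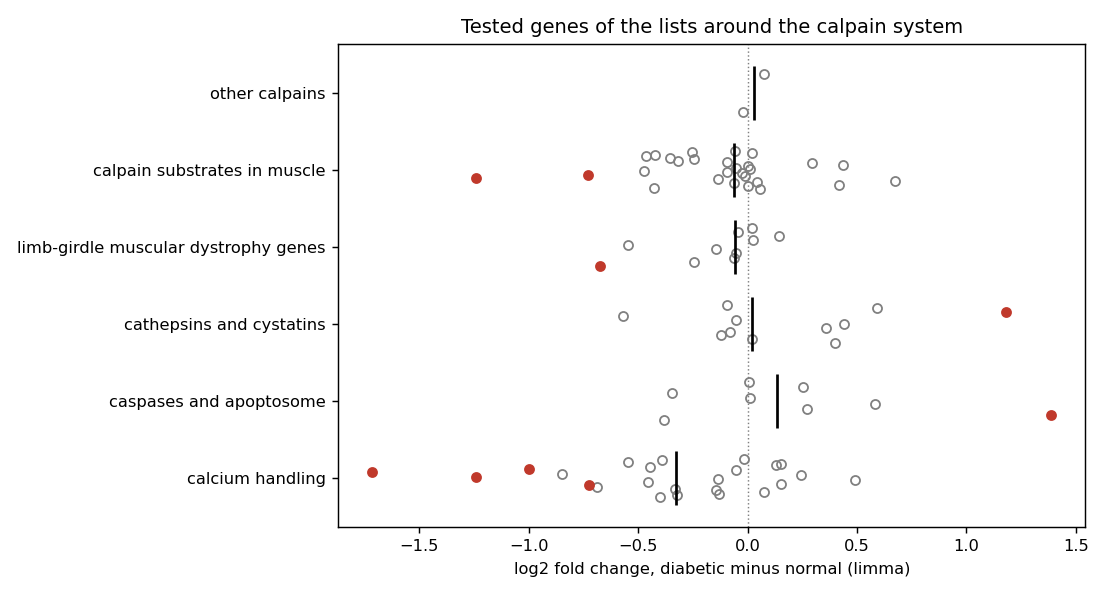
Log2 fold change of diabetic over normal diaphragm (x axis) for the tested genes of 6 lists around the calpain system, 1 point per gene, filled red where the limma adjusted p was under 0.05, with a vertical bar at the list's median. The calcium handling list has its median at -0.33, or -0.16 without normal replicate 3, while the medians of the other lists lie between -0.06 and 0.13.

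Calpains 1 and 2, the small subunit and calpastatin are made by many cell types, and in whole muscle fewer cells of a type and less RNA per cell cannot be told apart. The counts below stand beside 3.46% higher and 3.55% lower over all genes tested. Of the 11 fibroblast markers tested, 5 were lower in diabetic diaphragm and all 11 log2 fold changes were below 0, with a median of -0.53. The summed signal of the 12 fibroblast markers on the array was 27502 to 29099 in diabetic and 51051 to 54980 in normal rats, with Col1a1 at 1599 ± 131 in diabetic and 5616 ± 685 in normal muscle (SD, n = 3 each). Col3a1, at 4326 in diabetic and 15984 in normal muscle on average, and Col1a2, at 2380 and 6920, also weighed in that sum. Collagen genes were among those the study had selected on these arrays. Lum, a marker other than a collagen, was also lower, at 908 ± 146 in diabetic and 2469 ± 717 in normal muscle (SD, n = 3 each). Its log2 fold change was -1.41 (limma adjusted p = 0.0055), and it passed with each array left out. The 6 fibroblast markers that did not pass had log2 fold changes from -0.53 for Pi16 to -0.11 for Dcn. Of 8 endothelial markers 1 was higher and 1 lower, while the 6 tested macrophage and leukocyte markers, 3 Schwann cell markers and 2 red blood cell markers did not pass. Of 4 tested adipocyte markers 1 was higher, and of 6 tested smooth muscle markers 1 was lower. The endothelial calls, Kdr and Tie1, and the smooth muscle call, Acta2, were lost with any of the 6 arrays left out, and the adipocyte call, Pnpla2, with any of the 3 diabetic arrays left out. Among fibre genes, Myh4, the fastest myosin heavy chain, had a signal of 3051, 1975 and 1678 in diabetic rats, against 7495, 8705 and 6875 in normal rats (log2 fold change -1.82, adjusted p = 0.0017 from limma), and 2 of 17 fast and slow fibre genes were lower. The part of these shifts in the calpain and calpastatin values was not tested.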

How the data were processed

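Signals were deposited as MAS 5.0 intensity values on a linear scale, 1 per probe set, which the authors made from Affymetrix rat expression arrays and scaled per array. No source used here gives the MAS 5.0 settings. From the 6 arrays, the 136 signals under 1 were raised to 1 before taking log2. Left out were 57 controls and, by mean signal, the lowest 40% of the remaining probe sets. The 9519 that remained were fitted with limma 3.58.1 under R 4.3.3 (lmFit, eBayes with a trend), with Benjamini-Hochberg adjustment over all of them, in place of the BAM test of the study; present calls were not used. The procedure was tested on simulated data. Standard errors and intervals rest on 6 arrays, whose number limits the precision.

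Genes were named through the platform annotation: 12783 probe sets had 1 gene, 312 had several and 2771 had none. Of those with 1 gene, 12748 matched a current gene identifier and none changed symbol. A gene in a list stands for its brightest probe set. All probe sets of the 5 members are named, up to 4 genes per list that passed with the largest changes, and the 2 genes most like each member. Some substrates, calcium genes and fibroblast markers were named without a call (Ttn, Neb, Des, Sptan1, Actn3, Tpm1, Vcl, Tpm2, Ppp3ca, Flnc, Sptbn1, Tln1, Ryr1, Dcn, Pi16). These and the other calpains were chosen after their values were seen. Members and lists were chosen with earlier results of these data known. Alternatives were quantile or median scaling, offsets of 16 or 64, leaving out none or 60% of the dimmest probe sets, eBayes without its trend, weighted arrays, a block for the replicate number, other thresholds, ratios of means, means over probe sets, each array left out and, added after seeing the data, each other Cast probe set.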

Additional observations from a re-analysis of the deposited data

How the results depend on the processing

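None of the 7 calpain and calpastatin probe sets passed in either direction under any of 17 alternatives, and each log2 fold change kept its sign in all alternatives that gave it a value (16 for each, and 15 for Cast 1371173_a_at, which fell under the filter at the 60th percentile). Over those, adjusted p was 0.12 or more. The differences near 0 changed sign: Cast 1373466_at minus 1371173_a_at (-0.02) was 0.0053 with an offset of 16, 0.049 with an offset of 64 and -0.38 to 0.22 with each array left out, and Capn2 minus Cast (0.02) was -0.088 to 0.22 with each array left out. Capn3 minus Cast (-0.43) was 0.00018 against Cast 1369754_a_at, an alternative added after the values had been seen. The other 6 such differences kept their sign in the alternatives run; those of Capn1 and Capn2 minus Capns1 were also added after the values had been seen.

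Over all probe sets, 314 were higher and 331 lower. These counts were 133 to 226 and 179 to 235 with each array left out, 562 and 585 at an adjusted p under 0.1, and 1163 and 1112 at an unadjusted p under 0.05. Without the filter 200 were higher. Over the 6 lists together, 2 genes were higher and 6 lower, and 0 to 3 and 3 to 6 with each array left out. Over all 7080 genes tested, with all 6 arrays, 3.46% were higher and 3.55% lower. Among calpain substrates, 1 was lower in place of 2 without the filter, with the replicate block and without diabetic replicate 1, 2 or 3 or normal replicate 3, and the limb-girdle count of 1 was 0 with the replicate block and without the trend. Why these counts moved was not tested.

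The labels number the rats and do not say whether equal numbers were paired. Deviations of same-numbered arrays from their group means correlated at 0.098, -0.20 and -0.068, and not every array correlated best with its own number. With 3 arrays per group, such correlations cannot settle whether rats were paired. With the replicate number as a block 162 probe sets were higher and 170 lower, and the adjusted p of the members was 0.30 to 0.70.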
